A study of Mus musculus with 12 samples.

Results

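A set of 10 genes of interleukin and tumour necrosis factor signalling was followed in astrocytes purified from the mouse cortex: the ligand genes Il1a, Il1b, Tnf, Il12b, Il18 and Il33, and the receptor genes Tnfrsf1a, Tnfrsf1b, Il10ra and Il6ra. They were taken by gene symbol from the deposited table of 15089 genes, in which all 10 have a row of raw read counts. Cortical cells were dissociated enzymatically from mice on postnatal day 16, debris and dead cells were removed, and cells carrying the astrocyte antigen ACSA-2 were pulled out magnetically. Each of the 12 libraries holds total RNA from 1 mouse. The groups were ctrl-2 (Nmnat2f/+; NexCre+/-; Sarm1+/-; replicates 4, 5, 6 and 7), cKO;S/+ (Nmnat2f/f; NexCre+/-; Sarm1+/-; replicates 8, 9, 10 and 14) and cKO;S/S (Nmnat2f/f; NexCre+/-; Sarm1-/-; replicates 15, 16, 17 and 18). Every mouse thus carried Nex-Cre, which recombines floxed alleles in post-mitotic glutamatergic neurons and not in astrocytes, so that ctrl-2 neurons also lose 1 of their Nmnat2 alleles. The labels give ctrl-2 mice 1 Sarm1 null allele, and the study's methods allow none or 1. Nmnat2 encodes an NAD-synthesizing enzyme that keeps axons intact, and Sarm1 encodes an NAD hydrolase that drives axon loss. The comparisons thus ask what RNA of the sorted cells looks like beside neurons without Nmnat2, in mice with or without Sarm1. The Sarm1 null allele is not restricted to neurons, so by genotype the sorted cells of cKO;S/S are Sarm1-null too.

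Interleukin 1 and tumour necrosis factor are the early alarm cytokines of innate immunity. In the brain their transcripts are made mainly by microglia and macrophages, and the proteins act on receptors that astrocytes, endothelial cells and neurons also carry. Il1a encodes a form of interleukin 1 that is active as made, whereas the products of Il1b and Il18 must be cut by inflammasome-activated caspase-1. Il12b encodes the p40 subunit shared by interleukins 12 and 23, and Il33 encodes a nuclear alarmin that mouse astrocytes and oligodendrocytes express. Tnfrsf1a and Tnfrsf1b encode both receptors for tumour necrosis factor, Il10ra the ligand-binding chain of the interleukin 10 receptor and Il6ra that of the interleukin 6 receptor.

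Of the 10 genes, 8 were higher in cKO;S/+ than in ctrl-2 libraries, 4 of them ligand genes and 4 receptor genes, and none was lower. Microglia markers were present in every library and moved with the members, as described below, so the cells of origin are not known. Il12b, Tnf, Il1a and Il1b rose by log2 fold changes of 4.75, 2.54, 2.36 and 2.32, and the receptor genes by 0.46 to 1.36. Il18 and Il33 passed in no comparison. No member passed the test in cKO;S/S against ctrl-2 or in cKO;S/+ against cKO;S/S. Among all 15089 genes tested, 5.90% were called higher and 1.38% lower in cKO;S/+ against ctrl-2, and 0% in either direction in the other comparisons. The members were chosen with earlier results of these data known, so no enrichment follows from setting them beside these shares. Il12b met the authors' filter on low counts only through the mutant libraries, and without it 7 of the other 9 members were called.

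The upstream sequences of 3 of the ligand genes that rose, and of 1 receptor gene that rose less, are shown as the stretch nearest the start of each gene, which holds some but not all of the motif matches described next. They are given 5′ to 3′ on the strand of the gene, in lower case, from RefSeq on GRCm38.p6 (mm10), and end just before the most upstream RefSeq start. Capitals mark matches to TATAAA, the letters of a TATA box, and to GAGGAA or its reverse complement TTCCTC, the core bound by PU.1, a transcription factor of myeloid cells.
Tnf, chr17:35202008-35202157, minus strand: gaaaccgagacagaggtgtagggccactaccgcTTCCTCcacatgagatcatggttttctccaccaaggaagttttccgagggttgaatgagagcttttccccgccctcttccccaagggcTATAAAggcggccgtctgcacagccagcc
Il1b, chr2:129371165-129371289, minus strand: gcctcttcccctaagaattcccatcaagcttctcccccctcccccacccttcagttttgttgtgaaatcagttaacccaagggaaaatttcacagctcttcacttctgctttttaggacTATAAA
Il12b, chr11:44399913-44400062, plus strand: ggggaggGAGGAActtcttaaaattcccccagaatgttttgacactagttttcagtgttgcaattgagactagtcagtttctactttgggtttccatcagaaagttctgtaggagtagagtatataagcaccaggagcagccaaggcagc
Tnfrsf1b, chr4:145246871-145247020, minus strand: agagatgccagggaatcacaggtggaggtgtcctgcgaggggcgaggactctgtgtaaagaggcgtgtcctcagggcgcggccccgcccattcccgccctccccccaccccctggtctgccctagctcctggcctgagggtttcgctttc

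A promoter sequence was matched for 9 of the 10 members, without Il10ra. A member was counted where any of its listed starts had a motif match, whereas the shares of promoters count each listed start by itself. In the 250 bases upstream of the listed start, searched on both strands, TATAAA occurred for Il1a, Il1b, Tnf, Il18 and Il33, which is 5 of the 6 ligand genes and none of the 3 receptor genes, and it occurred in 12.4% of 32851 RefSeq promoters. It lay 29 to 24 bases before the listed start in Tnf, 31 to 26 in Il1b and 32 to 27 in Il1a. In Il33, which did not pass, it lay 29 to 24 bases before a downstream listed start and 203 to 198 before the upstream one. In Il18 the match was on the opposite strand, 175 to 170 bases before the start. For Il1b the listed start lies downstream of the most upstream RefSeq start, where the printed sequence ends, so TATAAA stands at the end of that sequence. The GAGGAA of Tnfrsf1b, 208 to 203 bases before the start, and the second match of Il12b, at 219 to 214, lie outside the printed stretches. GAGGAA occurred for Il1a, Tnf, Il12b, Tnfrsf1b and Il6ra and in 23.3% of all promoters. TGANTCA, the AP-1 motif, occurred for Il1a alone of the members and in 6.75% of promoters, and the kappaB consensus for 0 members and in 7.25% of promoters. Matches to different motifs did not overlap in any member. These matches are letters in a short window, and nothing follows from a missing match.

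Levels can be set between genes only per length, here as CPM (counts scaled to a common library total) per kilobase of the exonic length in the deposited table. In ctrl-2, Il18 stood first at 59.6 ± 5.41 CPM per kilobase (SD, n = 4). Il1a followed at 31.6 ± 22.1, then Tnfrsf1a at 21.98 ± 2.16, Il10ra at 20.5 ± 5.98 and Il6ra at 18.9 ± 5.15, and these 4 neighbours lay within their spread of one another. Il33 at 13.2 ± 2.51, Tnf at 11.9 ± 9.09, Tnfrsf1b at 8.61 ± 2.81 and Il1b at 8.45 ± 3.10 CPM per kilobase also did not differ between neighbours beyond their spread, and Il12b stood far below at 0.0957 ± 0.0347. In cKO;S/+ the order changed at the top. Il1a reached 162.3 ± 74.9 and Tnf 68.9 ± 32.2 CPM per kilobase, Il18 stood at 57.5 ± 7.50, Il10ra at 52.6 ± 15.6 and Il1b at 42.3 ± 22.3, and Il12b remained last at 2.60 ± 1.60. In cKO;S/S the first place was shared within the spread by Il1a at 57.6 ± 27.6 and Il18 at 55.5 ± 10.6 CPM per kilobase.

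Il1a (Entrez 16175, chromosome 2, 129299610 to 129309972, mm10), the gene of interleukin 1 alpha, had 21.3, 124.3, 53.0 and 51.2 CPM in ctrl-2 replicates 4, 5, 6 and 7. In cKO;S/+ it had 455.3, 379.8, 334.9 and 111.7 CPM in replicates 8, 9, 10 and 14, and in cKO;S/S 143.0, 73.2, 175.7 and 62.9 CPM in replicates 15, 16, 17 and 18. Replicates 8, 9 and 10 were far above all other libraries, while replicate 14 lay below ctrl-2 replicate 5, so the groups overlapped. Against ctrl-2 the log2 fold change was 2.36 (SE 0.535, edgeR's quasi-likelihood test, adjusted p = 0.0247).

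Tnf (Entrez 21926, chromosome 17, 35199367 to 35202007), the gene of tumour necrosis factor, had 7.49, 41.3, 17.2 and 12.3 CPM in the ctrl-2 libraries in the same order. It had 157.0, 130.3, 132.2 and 36.2 CPM in cKO;S/+ and 41.2, 24.1, 53.2 and 22.6 CPM in cKO;S/S. The libraries ranked almost as for Il1a, with ctrl-2 replicate 5 above the other controls and cKO;S/+ replicate 14 below it. The log2 fold change against ctrl-2 was 2.54 (SE 0.531, edgeR's quasi-likelihood test, adjusted p = 0.0221).

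Il1b (Entrez 16176, chromosome 2, 129364580 to 129371120), the gene of interleukin 1 beta and a neighbour of Il1a on the chromosome, was less abundant. It had 6.54, 15.9, 9.29 and 13.2 CPM for ctrl-2, 85.4, 57.5, 66.6 and 15.3 CPM for cKO;S/+ and 15.3, 8.78, 22.6 and 12.5 CPM for cKO;S/S. Replicate 14 was again the cKO;S/+ library that fell among the controls, and cKO;S/S lay close to ctrl-2. The log2 fold change against ctrl-2 was 2.32 (SE 0.451, edgeR's quasi-likelihood test, adjusted p = 0.0199).

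Il12b (Entrez 16160, chromosome 11, 44400063 to 44414677) was barely present outside cKO;S/+. Its raw counts were 6, 4, 6 and 3 for ctrl-2, 220, 143, 122 and 24 for cKO;S/+ and 15, 5, 27 and 2 for cKO;S/S, out of totals of 16506627 to 22159404 counts per library. These are 0.146 to 0.336 CPM for ctrl-2, 1.32 to 10.7 CPM for cKO;S/+ and 0.117 to 1.44 CPM for cKO;S/S. All 4 cKO;S/+ libraries were above all ctrl-2 libraries, and replicate 14, the lowest, lay just under the highest of cKO;S/S. The log2 fold change of 4.75 against ctrl-2 (SE 0.72, edgeR's quasi-likelihood test, adjusted p = 0.0138) was the largest of the 10. Every gene of the deposited table has at least 0.5 CPM in at least 4 libraries, and Il12b reached that level in 4 libraries of cKO;S/+, 2 of cKO;S/S and 0 of ctrl-2, so it is in the table only through the mutants. The other 9 members had it in all 12 libraries.

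**Figure D1:**
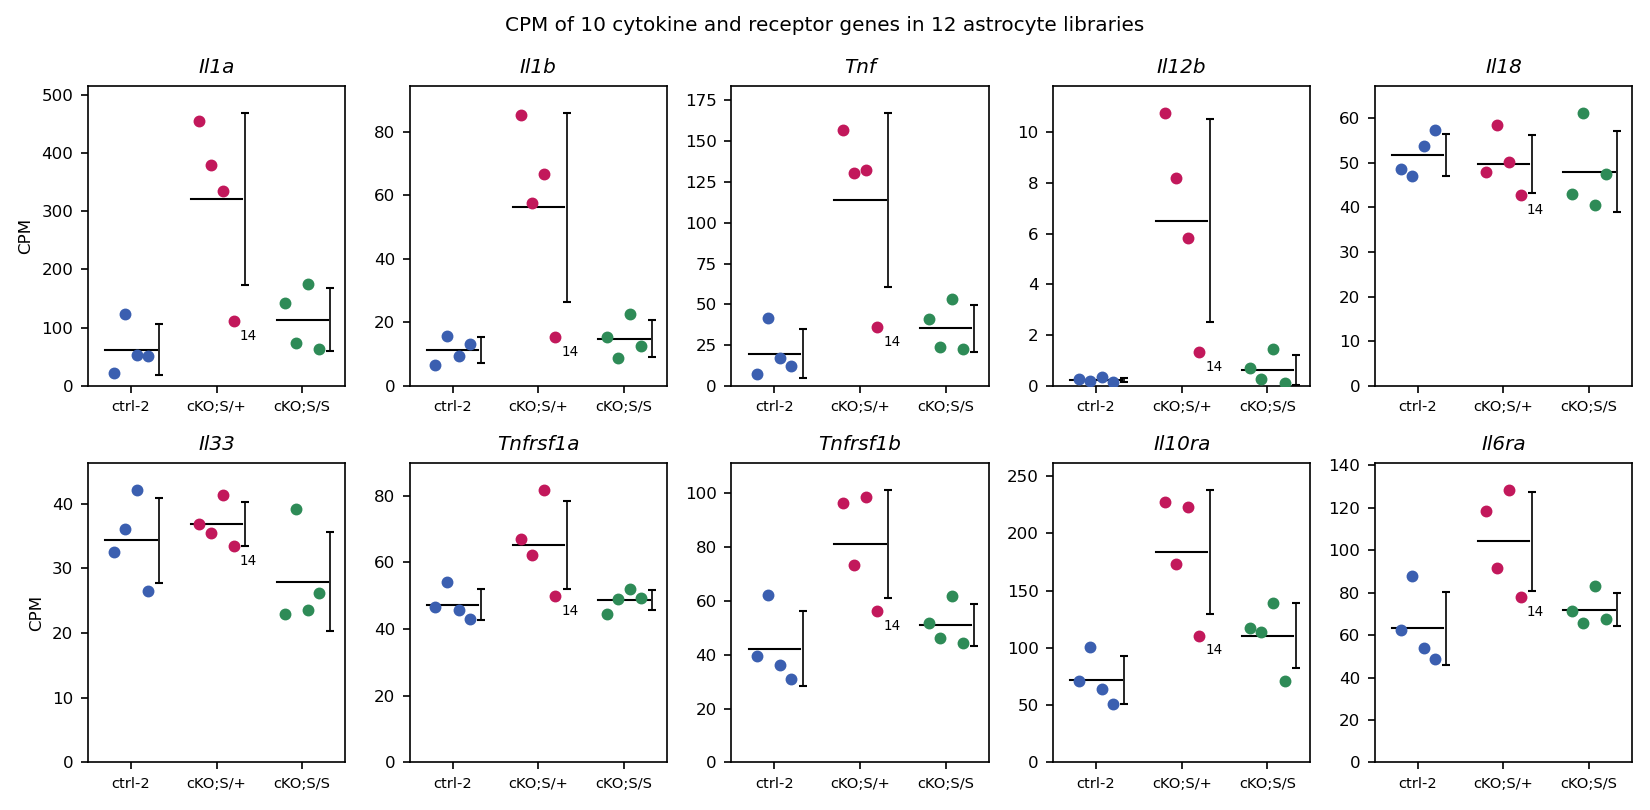
CPM of each gene (vertical axis, linear, from 0) in the 12 libraries by genotype. Points are libraries, the horizontal lines are group means, the bars are 1 SD (n = 4) and the number 14 marks cKO;S/+ replicate 14, which is the lowest cKO;S/+ library for each of the 8 genes that rose, as at 111.7 CPM of Il1a.

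Il18 (Entrez 16173, chromosome 9, 50565368 to 50581837), the gene of interleukin 18, had 48.7, 47.0, 53.7 and 57.2 CPM for ctrl-2, 47.9, 58.4, 50.2 and 42.8 CPM for cKO;S/+ and 43.0, 61.1, 40.6 and 47.4 CPM for cKO;S/S. The 3 groups overlapped throughout. The log2 fold change of cKO;S/+ against ctrl-2 was -0.05, with a 95% interval from -0.328 to 0.224, so a change as large as that of Il1a lies outside the interval. Il33 (Entrez 77125, chromosome 19, 29925114 to 29960715) had 32.5, 36.0, 42.2 and 26.6 CPM for ctrl-2, 36.9, 35.5, 41.4 and 33.4 CPM for cKO;S/+ and 22.9, 39.2, 23.6 and 26.2 CPM for cKO;S/S. Its log2 fold changes were 0.10 (95% interval -0.268 to 0.471) in cKO;S/+ against ctrl-2 and -0.30 (-0.668 to 0.0765) in cKO;S/S against ctrl-2. In cKO;S/S, 3 of the 4 libraries lay below every library of the other genotypes, and replicate 16 lay near the top.

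The receptor genes rose by smaller fold changes than the 4 ligand genes. Il10ra (Entrez 16154, chromosome 9, 45253839 to 45269146) had 70.8, 100.4, 64.1 and 51.0 CPM for ctrl-2, 227.2, 173.3, 223.2 and 110.7 CPM for cKO;S/+ and 117.4, 114.2, 138.9 and 71.2 CPM for cKO;S/S. It was the only receptor gene whose cKO;S/+ libraries all exceeded ctrl-2, and 3 of 4 cKO;S/S libraries did so too. The log2 fold change was 1.36 in cKO;S/+ (SE 0.26, edgeR's quasi-likelihood test, adjusted p = 0.0196) and 0.63 in cKO;S/S (adjusted p = 0.388). Il10ra was also the only member higher at an unadjusted p under 0.05 in cKO;S/S, as were 6.79% of all genes.

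Tnfrsf1b (Entrez 21938, chromosome 4, 145212368 to 145246870), whose receptor is carried mainly by immune cells and endothelium, had 39.6, 62.3, 36.1 and 31.1 CPM for ctrl-2, 96.3, 73.3, 98.7 and 56.2 CPM for cKO;S/+ and 51.8, 46.2, 61.9 and 44.4 CPM for cKO;S/S. The overlap came from ctrl-2 replicate 5 and cKO;S/+ replicate 14, and the log2 fold change was 0.94 (SE 0.218, edgeR's quasi-likelihood test, adjusted p = 0.0262). Il6ra (Entrez 16194, chromosome 3, 89869324 to 89913162) had 62.4, 87.7, 54.1 and 48.8 CPM for ctrl-2, 118.5, 91.8, 128.5 and 77.9 CPM for cKO;S/+ and 71.3, 65.8, 83.0 and 67.4 CPM for cKO;S/S. The same pair of libraries made these groups overlap, and the log2 fold change was 0.72 (SE 0.185, edgeR's quasi-likelihood test, adjusted p = 0.0354).

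Tnfrsf1a (Entrez 21937, chromosome 6, 125349723 to 125362483), whose receptor is carried by most cell types, had 46.5, 54.0, 45.8 and 43.2 CPM for ctrl-2, 67.1, 62.1, 81.8 and 49.9 CPM for cKO;S/+ and 44.5, 49.0, 51.9 and 49.4 CPM for cKO;S/S. Its change was the smallest of the 8, at 0.46 on the log2 scale (SE 0.124, edgeR's quasi-likelihood test, adjusted p = 0.0427), and its cKO;S/S libraries lay within the range of ctrl-2.

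Il12b and Il10ra were the 2 members whose cKO;S/+ libraries all exceeded all ctrl-2 libraries, a pattern found in 6.53% of all genes. Il12b met the filter only through the mutant libraries, which favours such a pattern, and without it only Il10ra remained. A called gene has an unadjusted p under 0.05 by construction. No member beyond the 8 called reached that level in cKO;S/+ against ctrl-2, and 14.3% of all genes were higher at it. In cKO;S/S against ctrl-2, 0 members lay wholly above (2.62% of all genes), and log2 fold changes ran from -0.30 for Il33 to 1.43 for Il12b (adjusted p = 0.523). In cKO;S/+ against cKO;S/S, 9 of the 10 members, all but Il18, were higher at an unadjusted p under 0.05 (9.17% of all genes), with adjusted p from 0.143 for Il12b to 0.244 for Il33 by edgeR's quasi-likelihood test, and 0 lay wholly above (2.66% of all genes). Both comparisons called 0 of all genes by that test, against 1760 and 2758 genes at an unadjusted p under 0.05. By edgeR's likelihood ratio test 33 genes were higher and 15 lower in cKO;S/S against ctrl-2 and 303 and 173 in cKO;S/+ against cKO;S/S, and DESeq2 31 and 27, and 396 and 229. With limma-voom 0 genes passed in either. The median log2 fold change of the 6 ligand genes was 2.34 for cKO;S/+ against ctrl-2, 0.63 for cKO;S/S against ctrl-2 and 1.59 for cKO;S/+ against cKO;S/S. That of the 4 receptor genes was 0.83, 0.23 and 0.60, and that of all genes was at most 0.014 in size. The comparisons share libraries, so these values are not independent of one another.

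**Figure D2:**
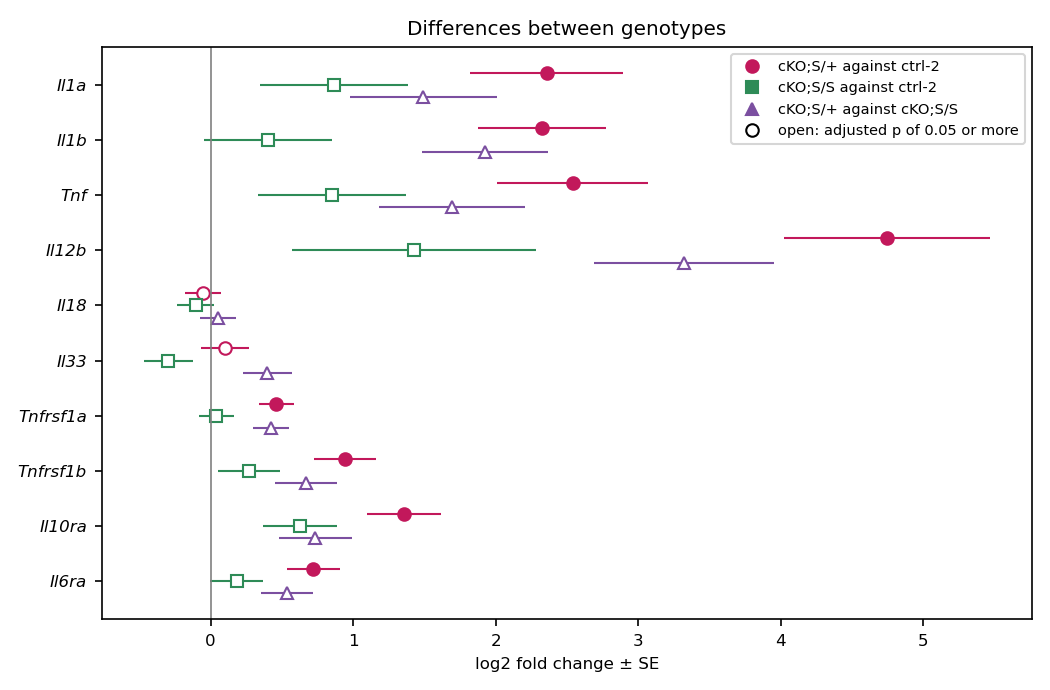
Log2 fold change ± SE of each gene (horizontal axis) in the 3 comparisons, from edgeR's quasi-likelihood model. Filled symbols passed an adjusted p of 0.05, and the 8 filled symbols all belong to cKO;S/+ against ctrl-2, from 0.46 for Tnfrsf1a to 4.75 for Il12b.

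The calls depended on single libraries. With cKO;S/+ replicate 8 or any control but replicate 5 left out, 0 members passed against ctrl-2, and 0 of all genes did. Without cKO;S/+ replicate 10 only Il12b passed, beside 33 genes higher and 4 lower among all 15089. Without replicate 9 Il1b, Tnf, Il12b, Tnfrsf1b and Il10ra passed, beside 433 genes higher and 35 lower. Without any 1 of the cKO;S/S libraries, 7 members passed, and Tnfrsf1a was the one lost each time. Among all genes, 764 to 918 were then higher and 136 to 224 lower. Over all 12 such fits the log2 fold change of the 8 members stayed above 0, with ranges of 2.07 to 2.94 for Il1a, 4.37 to 5.08 for Il12b and 0.33 to 0.57 for Tnfrsf1a.

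**Figure D3:**
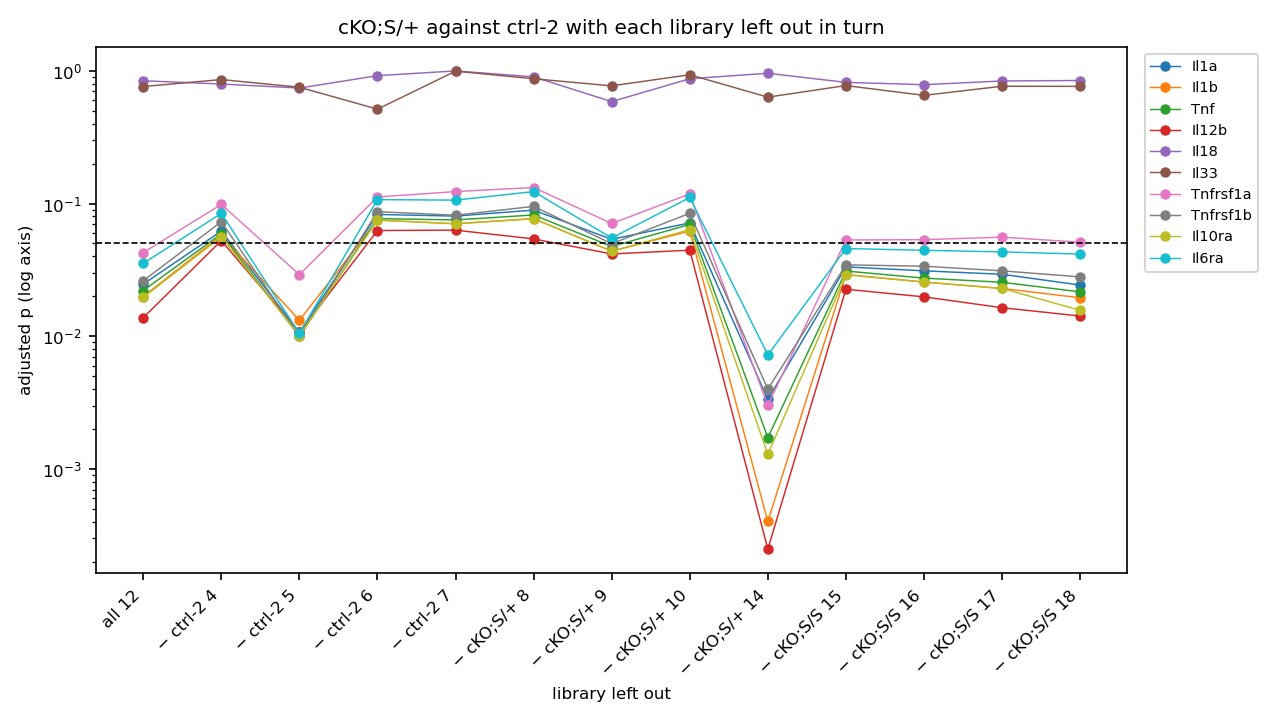
Adjusted p (vertical axis, log scale) of each gene in cKO;S/+ against ctrl-2 with all 12 libraries and with each library left out in turn (horizontal axis). The dashed line is 0.05. Without cKO;S/+ replicate 14 the adjusted p of the 8 genes fell to between 0.000249 and 0.00722, and Il18 and Il33 stayed far above the line in every fit.

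Replicate 14 was the lowest cKO;S/+ library for each of the 8 genes, and ctrl-2 replicate 5 was the highest control for Il1a, Il1b, Tnf and the 4 receptor genes. Dixon's test, at the 95% critical value of 0.829, marked no outlying library in any of the 30 sets of 4 libraries (10 genes in 3 genotypes). Replicate 14 was singled out after its low values were seen, so leaving it out widens the differences by construction, and the values without it are a description. Without replicate 14, all 8 called members of the 3 remaining cKO;S/+ libraries exceeded every ctrl-2 library (16.2% of all genes) and every cKO;S/S library (11.5% of all genes). The same 8 members then passed against ctrl-2, beside 10.6% of all genes, and against cKO;S/S, beside 5.73% of all genes. Against cKO;S/S the log2 fold changes were then 3.65 for Il12b (edgeR's quasi-likelihood test, adjusted p = 0.00201), 2.23 for Il1b, 1.98 for Tnf, 1.78 for Il1a and 0.53 to 0.91 for the receptor genes. With any other single library left out, 0 members passed against cKO;S/S. Replicate 14 was also the only cKO;S/+ library without Xist, the transcript of the inactive X chromosome, with 0.0552 CPM against 1031 to 1329 CPM in replicates 8, 9 and 10. Xist was present in ctrl-2 replicate 7 and in cKO;S/S replicates 16 and 17. Among libraries with Xist, Il1a had 51.2 CPM in the single ctrl-2 library, 334.9 to 455.3 CPM in 3 cKO;S/+ libraries and 73.2 to 175.7 CPM in 2 cKO;S/S libraries. Among libraries without it, Il1a had 21.3 to 124.3 CPM in 3 ctrl-2 libraries, 111.7 CPM in replicate 14 and 62.9 to 143.0 CPM in 2 cKO;S/S libraries. With Xist as a covariate 0 members passed against ctrl-2, and the log2 fold changes of the 8 genes were 0.38 to 3.93, against 0.46 to 4.75 without the covariate, with adjusted p from 0.0618 to 0.15. When replicate 14 was left out as well, 8 passed. Libraries with and without Xist are thus unevenly spread over the genotypes, and the part of sex in the values of replicate 14 was not tested.

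Nmnat2 ran from 35.6 to 42.4 CPM for ctrl-2, 20.3 to 29.4 CPM for cKO;S/+ (replicate 14 highest), and 19.9 to 42.6 CPM for cKO;S/S with replicate 15 at the level of ctrl-2. Since Nex-Cre acts in neurons and the deleted exons could not be read apart in gene counts, these values check the labels only weakly. Sarm1 ran from 5.73 to 12.8 CPM for ctrl-2, 6.13 to 10.1 for cKO;S/+ and 4.82 to 7.22 for cKO;S/S. Reads of Sarm1 thus remained in every cKO;S/S library and overlapped ctrl-2, with a log2 fold change of -0.63 (edgeR's quasi-likelihood test, adjusted p = 0.379). Gene counts therefore do not check the Sarm1 genotype. The summed CPM of 16 astrocyte markers was 33990 to 37810, 29060 to 35820 and 21890 to 34810 in the 3 genotypes, with no marker called.

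Microglia markers moved with the members. The summed CPM of 20 markers of microglia and macrophages was 3315 to 6681 for ctrl-2, 5881 to 10340 for cKO;S/+ and 4492 to 6468 for cKO;S/S, and all were detected in every library. In cKO;S/+ against ctrl-2 all 20 had a log2 fold change above 0 (median 0.84) and 14 were called higher, beside 5.90% of all genes. Csf1r, the receptor that microglia need to survive, had 0.87 (adjusted p = 0.0327) and Ctss, a lysosomal protease, 1.34 (adjusted p = 0.0243), both by edgeR's quasi-likelihood test. In these bulk samples more cells of a type and more RNA per cell cannot be told apart. The 7 measured border macrophage markers summed to 71.8 to 196.8 CPM for ctrl-2 and 43.3 to 96.0 CPM for cKO;S/+, with none above 0 on the log2 scale (median -1.12) and 1 called lower. Markers of oligodendrocytes (0 of 12 above 0, median -0.63), their precursors (0 of 6, median -0.57) and mural cells and fibroblasts (0 of 12, median -0.49) also had negative values, with none called. Endothelial markers were mostly above 0 (9 of 10, median 0.26), with none called. Of 12 neuron markers 7 were above 0 (median 0.10), and Gad1 alone was called higher. Of 17 blood leukocyte markers 3 were measured, at sums of 1.20 to 4.96 CPM. Immediate early genes, which respond to activity and to tissue dissociation, also moved. Their summed CPM was 2438 to 4284 for ctrl-2, 4924 to 8779 for cKO;S/+ and 3760 to 6493 for cKO;S/S. In cKO;S/+ against ctrl-2, 15 of these 20 genes were called higher, beside 5.90% of all genes. Their part in the results was not tested.

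Set against the microglia marker sum of the same library, the members fell into 3 kinds. Tnfrsf1b kept nearly one proportion, at 0.913% ± 0.0511 of the sum (SD, n = 4) for ctrl-2, 0.978% ± 0.0315 for cKO;S/+ and 0.955% ± 0.0298 for cKO;S/S. Il6ra likewise stood at 1.38% ± 0.0785, 1.26% ± 0.0440 and 1.35% ± 0.100. These receptor genes moved with the markers library by library, including in ctrl-2 replicate 5 and cKO;S/+ replicate 14.

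Members of the second kind had higher group means in cKO;S/+ even per marker. Il1a was 1.31% ± 0.606 of the sum for ctrl-2, 3.76% ± 1.48 for cKO;S/+ and 2.06% ± 0.727 for cKO;S/S. Tnf was 0.400% ± 0.191, 1.32% ± 0.514 and 0.641% ± 0.177, and Il1b 0.254% ± 0.107, 0.644% ± 0.278 and 0.271% ± 0.0723. Il12b was 0.00552% ± 0.00253 for ctrl-2, 0.0755% ± 0.0439 for cKO;S/+ and 0.0109% ± 0.00873 for cKO;S/S. Il10ra was 1.55% ± 0.0839, 2.19% ± 0.230 and 2.04% ± 0.309, and so had higher means per marker in both mutant genotypes. For Il1a, Il12b, Il10ra and Tnfrsf1b, all cKO;S/+ libraries exceeded all ctrl-2 libraries in this proportion, as did 0.477% of all genes. The margin was narrow for Il1a (1.86% against 1.899%) and Tnfrsf1b (0.944% against 0.955%), and Il12b is in the deposited table only through the mutants. The marker sum was higher in cKO;S/+, which by arithmetic keeps the share of all genes low, so that share is a weak yardstick here.

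Members of the third kind had lower group means per marker in cKO;S/+. The marker sum itself had a mean of 4639 CPM for ctrl-2 and 8286 CPM for cKO;S/+. A gene that rises less than this sum has a lower proportion by arithmetic. In CPM, Il18 and Il33 did not pass and Tnfrsf1a was called higher, so this kind is not a fall of these genes. Il18 was 1.22% ± 0.445 of the sum for ctrl-2, 0.625% ± 0.149 for cKO;S/+ and 0.923% ± 0.261 for cKO;S/S. Il33 was 0.782% ± 0.239, 0.458% ± 0.0817 and 0.537% ± 0.185, and Tnfrsf1a 1.07% ± 0.221, 0.795% ± 0.0596 and 0.925% ± 0.139. When the mean log2 CPM of the markers entered the model as a covariate, the log2 fold change against ctrl-2 was 0.01 for Il6ra, 0.06 for Tnfrsf1a, 0.09 for Tnfrsf1b and 0.35 for Il10ra, against 0.87 for Il1a, 0.89 for Tnf, 1.04 for Il1b and 2.75 for Il12b. None of these passed (adjusted p = 0.996 or 0.997, edgeR's quasi-likelihood test), and 0 of all genes did.

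**Figure D4:**
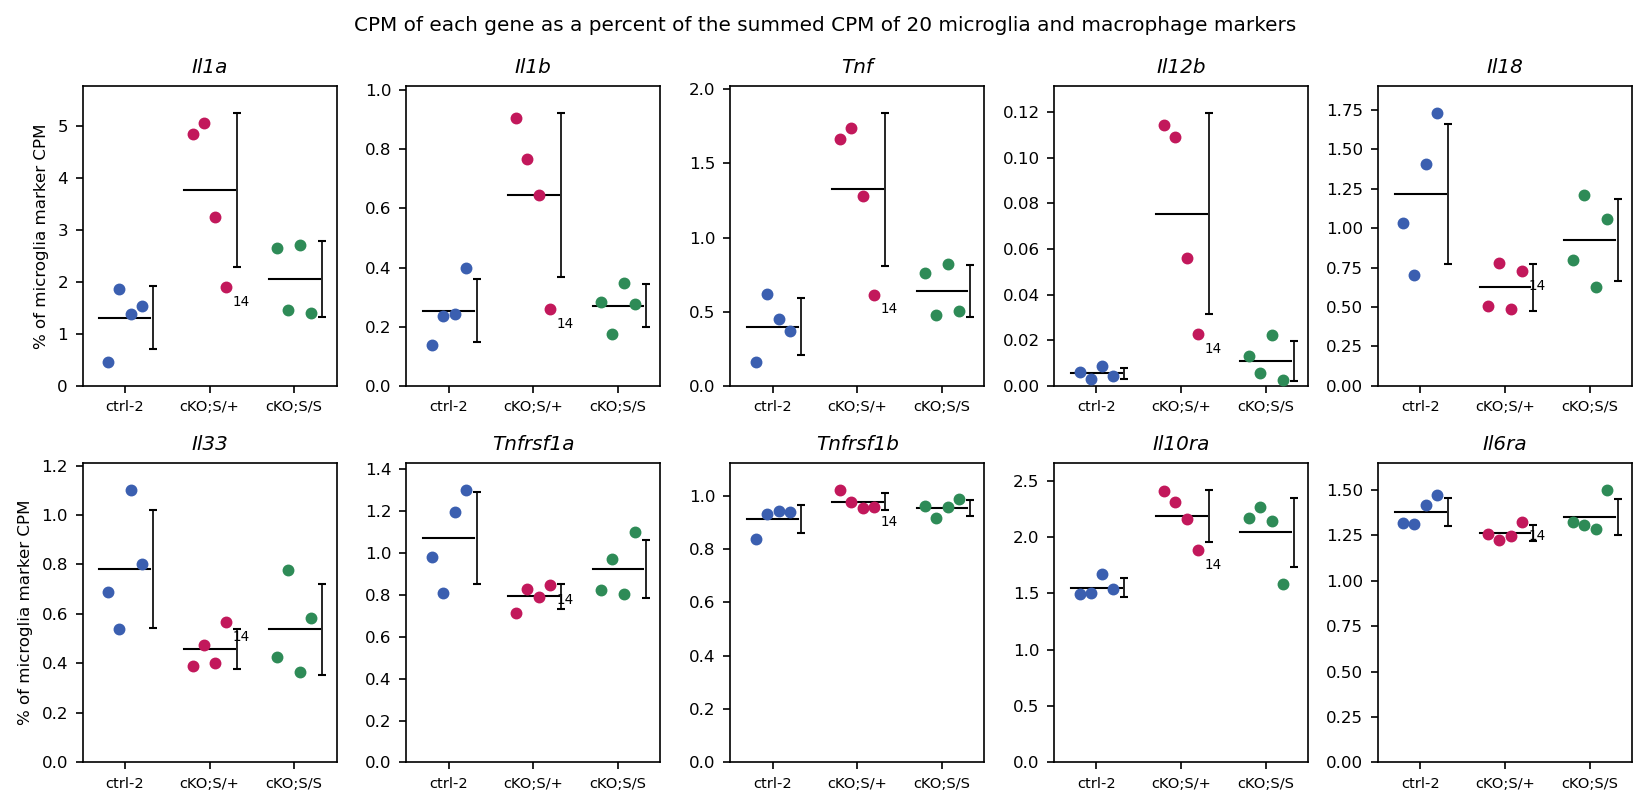
CPM of each gene as a percent of the summed CPM of 20 microglia and macrophage markers in the same library (vertical axis, from 0), by genotype. Points are libraries, lines are means and bars are 1 SD (n = 4). Tnfrsf1b stays between 0.836% and 1.02% in all 12 libraries, whereas Il1a runs from 0.450% to 5.06%.

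For each member, the genes whose pattern over the 12 libraries was most like its own were sought. Likeness was measured as the root mean square difference of log2 CPM after centring each gene, over 12666 genes, for members whose log2 CPM had an SD of at least 0.5. Nearest to Tnfrsf1b were Dock2 (0.0475), Coro1a (0.0626) and Ikzf1 (0.0653), which encode leukocyte regulators of migration, actin and transcription. Nearest to Il10ra were Irf5 (0.0732), Blnk (0.0918) and Pik3ap1 (0.101), genes of myeloid and lymphoid signalling.

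The ligand genes had other neighbours. Il1a and Tnf were nearest to each other (0.171), and outside the members Ccl4 came first for Il1a (0.364), Tnf (0.347) and Il1b (0.337). Ccl4 and Ccl3, the latter at 0.346 from Il1b, encode chemokines of activated microglia. Tnfaip3, a feedback inhibitor of TNF and NF-kappaB signalling, came next for Il1a (0.382) and Tnf (0.375), followed by Cd83 for Il1a (0.385) and Arl5c for Tnf (0.388). Il12b had more distant neighbours, Tnfaip2 (0.772), the interferon-induced chemokine gene Cxcl10 (0.83) and Clec7a (0.876), the gene of the receptor dectin-1. Il18, Il33, Tnfrsf1a and Il6ra varied too little for this measure, with SDs of 0.187, 0.309, 0.273 and 0.418.

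Of 131 further genes of these pathways in 6 lists, 99 were measured. In cKO;S/+ against ctrl-2, 29 were higher and 2 lower, beside 5.90% and 1.38% of all genes. The lists were chosen with earlier results of these data known, so no enrichment follows from these shares. The median log2 fold change of the 99 was 0.33. In cKO;S/S against ctrl-2 and in cKO;S/+ against cKO;S/S, 0 of the 99 passed by edgeR's quasi-likelihood test. Without replicate 14, 44 were higher and 7 lower against ctrl-2, beside 10.6% and 6.46% of all genes, and 30 higher and 2 lower against cKO;S/S, beside 5.73% and 5.38% of all genes.

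Inflammasome sensors were among the genes called. Of 14 measured genes of inflammasomes and cytokine processing, 8 were higher, with a median log2 fold change of 0.99: Casp4, Nlrp3, Nlrp1b, Aim2, Naip2, Naip5, Pycard and Rhbdf2. Casp4, the mouse caspase-11 gene, whose product senses bacterial lipopolysaccharide, had a log2 fold change of 2.19 (edgeR's quasi-likelihood test, adjusted p = 0.021). Naip5 and Naip2, sensors of bacterial proteins, had 1.51 and 1.20, and Rhbdf2, which brings the TNF sheddase to the cell surface, 1.28. The proteases of the list that act on cytokines did not pass: Casp1, the caspase-1 gene, had 1.03 (edgeR's quasi-likelihood test, adjusted p = 0.0837), and the sheddase gene Adam17 0.16 (adjusted p = 0.276).

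Among 19 measured genes of TNF receptor signalling, Traf5, Casp8, Birc3, Tnfaip3 and Tnip2 were higher and none was lower (median 0.23). Tnfaip3 had a log2 fold change of 2.37 (edgeR's quasi-likelihood test, adjusted p = 0.0177) and Birc3, a ubiquitin ligase that restrains cell death, 1.25. Of 15 other TNF superfamily genes, Tnfsf9, Tnfrsf14, Tnfrsf11a and Tnfrsf12a were higher and Tnfrsf19 lower (median 0.59), with Tnfsf9, the ligand of 4-1BB, at 2.30 (adjusted p = 0.0146).

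Partners of the interleukin members were also among the genes called. Of 13 genes of interleukin 1 family receptors, inhibitors and adaptors, Il1rl1, Myd88 and Irak4 were higher (median 0.16). Il1rl1, the receptor gene for interleukin 33, had a log2 fold change of 1.21 (edgeR's quasi-likelihood test, adjusted p = 0.0438), and the adaptor genes Myd88 and Irak4 had 0.55 each. Of 18 partners in the interleukin 12, 10 and 6 families, Il10rb, Osm and Socs3 were higher (median 0.16). Osm, the gene of oncostatin M, had 1.62 (adjusted p = 0.0188), Socs3, an inhibitor of cytokine signalling, 1.16, and Il10rb, the partner chain of Il10ra, 0.66. Of 20 other interleukin genes, Il15, Il16, Il4ra, Il21r, Csf2rb and Csf2rb2 were higher and Il17rd lower (median 0.46), with Il15 at 0.96 and Il17rd at -0.50.

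**Figure D5:**
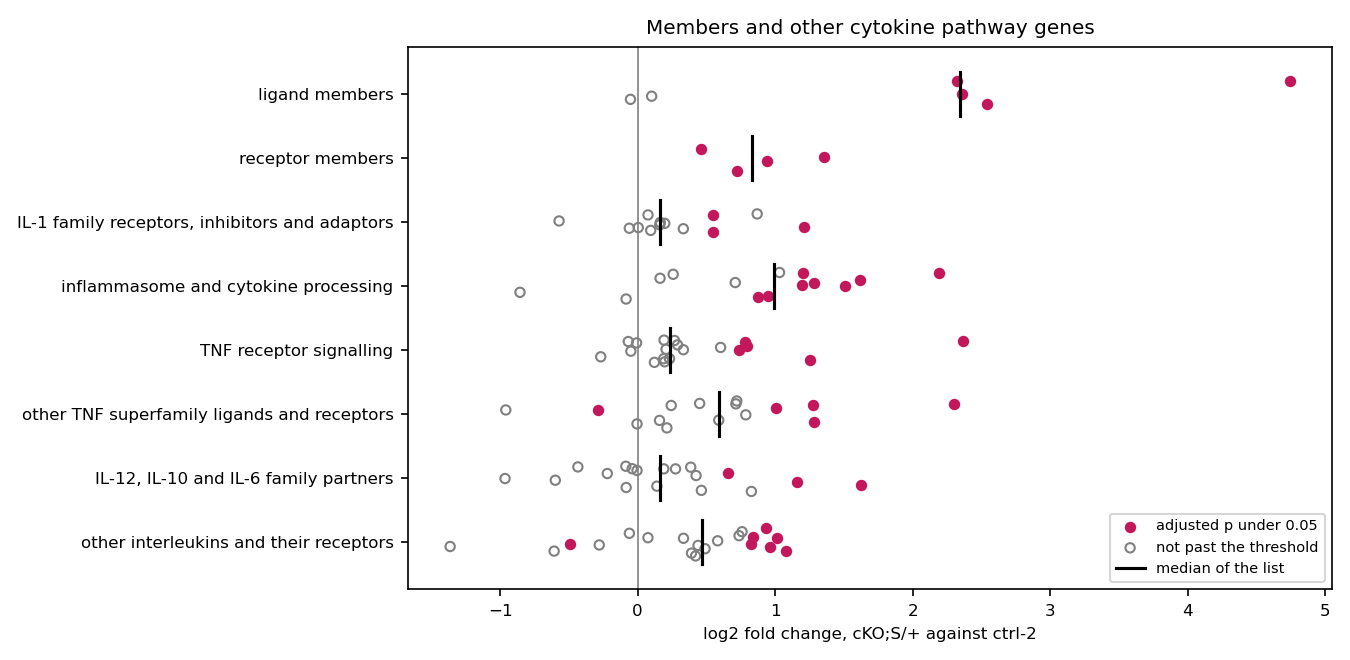
Log2 fold change in cKO;S/+ against ctrl-2 (horizontal axis) of the members and of 99 measured genes of 6 pathway lists. Each circle is a gene, filled where the adjusted p was under 0.05, with random vertical offset, and black lines are medians. The list medians run from 0.16 to 0.99, and those of the ligand and receptor members are 2.34 and 0.83.

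Overlapping transcripts limit the counts of Il1a and Il6ra. Of the 1974 exonic bases of Il1a, 222 (11.2%) are shared with Gm14023, a transcript of the opposite strand, and 208 bases of Il6ra (6.22%) with the antisense transcript Gm42809, and the strand setting of the counting is not given in the sources used here. Gm14023 itself stood at 1.49 ± 0.713 CPM among controls and at 3.11 ± 1.28 CPM in the cKO;S/+ libraries (log2 fold change 1.06, edgeR's quasi-likelihood test, adjusted p = 0.155), far below the levels of Il1a.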

How the data were processed

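Total RNA of ACSA-2-sorted cortical astrocytes was sequenced in 12 libraries, 1 per mouse. The authors deposited raw read counts per gene, not normalized, for 15089 genes, beside an exonic length, log2 CPM, fold changes and p-values of their own, which were not used. Tools in the submitters' notes are STAR 2.7.10a, Subread 2.0.3 (featureCounts), FastQC 0.11.5 and edgeR 4.2.1, with mm10 as the build. The annotation is not given in the sources used here. Counts were tested here with edgeR 4.0.16 in R 4.3.3: filterByExpr (minimum count 10, minimum total 15, 0 genes removed), TMM scaling, and one quasi-likelihood fit of all 12 libraries, two-sided, with Benjamini-Hochberg adjustment over all genes and a threshold of 0.05. CPM use scaled library totals, and log2 CPM a prior count of 2. Intervals are 95% intervals from the same fit. The test was tested on simulated data. Alternatives were other normalizations, filters and tests (limma 3.58.1, DESeq2 1.42.0), covariates, 2 genotypes alone, and each library left out. The settings for the pathway counts, and both covariates without replicate 14, were added after seeing the data. Named genes are the members, up to 4 called genes per pathway list, the most abundant cell type markers, the 3 genes nearest each member, and genes overlapping a member. Those named beyond these, as called genes of a list, were chosen after their values were seen. The members and lists were chosen with earlier results of these data known. Figures were drawn with matplotlib 3.10.9.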

Additional observations from a re-analysis of the deposited data

How the results depend on the processing

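In cKO;S/+ against ctrl-2, 8 members were called with RLE factors, upper quartiles, library totals, other filters, the likelihood ratio test and DESeq2, and 7 with limma-voom. The call count was 0 with Xist as a covariate (log2 fold changes of 0.38 to 3.93, against 0.46 to 4.75 without it), beside 0 genes higher and 2 lower. It was 0 with the microglia marker mean as a covariate, with or without replicate 14, beside at most 4 genes higher and 0 lower. It was 5 with the 2 genotypes fitted alone, beside 562 genes higher and 106 lower. It ran from 0 to 8 when each library was left out. The 31 pathway genes called became 0 with either covariate, 0 with microglia without replicate 14, and 0 to 51 with a library left out. In cKO;S/+ against cKO;S/S, 3 members and 9 pathway genes were called by the likelihood ratio test, 3 and 13 by DESeq2, and 3 and 13 with Xist as a covariate without replicate 14. Counts of all genes called by the likelihood ratio test and DESeq2 in this comparison are given above. Leaving out each library gave 0 to 8 members and 0 to 32 pathway genes. In cKO;S/S against ctrl-2, 0 members were called in every setting run, and DESeq2 called 1 pathway gene. The cause of these changes was not tested.

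With the microglia covariate, log2 fold changes turned to 0.11 for Il18 and -0.0081 for Il33 in cKO;S/+ against ctrl-2, to -0.058 for Tnfrsf1a in cKO;S/S against ctrl-2, and to -0.026 for Il10ra and -0.018 for Il6ra in cKO;S/+ against cKO;S/S. Without replicate 14 as well, they were 0.41 for Il18, -0.031 for Tnfrsf1a and -0.023 for Il6ra. With each library left out, Il18 ran from -0.14 to 0.013 and Il33 from -0.0033 to 0.21 in cKO;S/+ against ctrl-2, Tnfrsf1a from -0.0021 to 0.11 in cKO;S/S against ctrl-2, and Il18 from -0.032 to 0.19 in cKO;S/+ against cKO;S/S. None of these values passed. Il12b could not be tested in cKO;S/S against ctrl-2 alone, where the filter removed it. No paired analysis was possible because the labels give no litter, and the replicate numbers are library numbers that carry no pairing. Il12b had 3 to 6 counts per ctrl-2 library, so depth limits its fold change.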
